A study of Apis mellifera with 4 samples.

Results

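AmOBP11 is one of the 19 odorant binding protein genes on an array of 313 honey bee genes, and its sex difference in antennal RNA is described here spot by spot. It was chosen by name: the spots named AmOBP11 were taken, which are 2 spots on each of 4 arrays, each read in a drone and a worker channel, for 16 signals in all. The gene was picked with its drone over worker ratio known, as the binding protein with the largest worker bias, so that ratio is given as a description, with no test. Each array compared 1 pool of mature drone (male) antennae with 1 pool of worker (female) antennae of Apis mellifera. Per the labels, whole antennae were dissected from bees taken at hive entrances, 50 sets to a pool, and each labelling reaction started from 20 µg of total RNA. The labels give no bee age, strain or colony for the samples, and per the design text each pool was an independent collection. Drone RNA carried Cy3 on arrays 1 and 3, and Cy5 on the other two, by the label fields and the even dye swap of the design text. The protocol texts of the labels give different dyes for 3 arrays, and with those AmOBP11 would have a log2 ratio of -3.63 on array 1 and of 3.41, 3.46 and 3.24 on arrays 2, 3 and 4. The descriptions of arrays 3 and 4 share an array number, with the letters A and B, and do not say whether they were printed on a shared slide. With so few arrays, every value has limited precision.

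Odorant binding proteins are small soluble proteins that support cells secrete into the fluid of olfactory sensilla, the hair-like or plate-like organs of the antenna. They bind hydrophobic odorants and pheromones and are thought to carry them to receptors on the neurons. Workers bear peg-shaped sensilla basiconica that drones lack, and AmOBP11 has been linked to these sensilla. In RNA from whole antennae, fewer cells of a type and less RNA per cell cannot be told apart.

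AmOBP11 gave a strong signal in every worker channel and a weak one in every drone channel. Averaged over both spots, the drone signal above local background was 902.5, 229.5, 358 and 187.5 scanner units on arrays 1 to 4, against 10054, 3594, 6637 and 2693 units in worker. The brightest drone spot, at 1235 units, was dimmer than the dimmest worker spot, at 2429 units, although the arrays differed in overall brightness. No AmOBP11 spot was saturated or marked as absent or not found.

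How far these signals stood above non-specific signal was judged by the negative control spots. The threshold was the mean plus 2 SD of 14 control spots of the same channel, with oligo 4, a bright control, left out. In drone the AmOBP11 signal was 1.33, 3.91, 0.367 and 0.312 times the threshold on arrays 1 to 4, against 16.6, 44.7, 4.82 and 4.78 times in worker. Drone signal was thus above the controls on arrays 1 and 2 and under them on arrays 3 and 4, which does not show that the transcript is absent from drones. Worker signal was above them on all 4 arrays. With oligo 4 included, the drone thresholds were 7021, 1245, 6241 and 8060 units, against 8623, 1667, 6552 and 5005 units in worker. By that stricter threshold AmOBP11 cleared the controls nowhere in drone, and on arrays 1, 2 and 3 in worker.

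**Figure D1:**
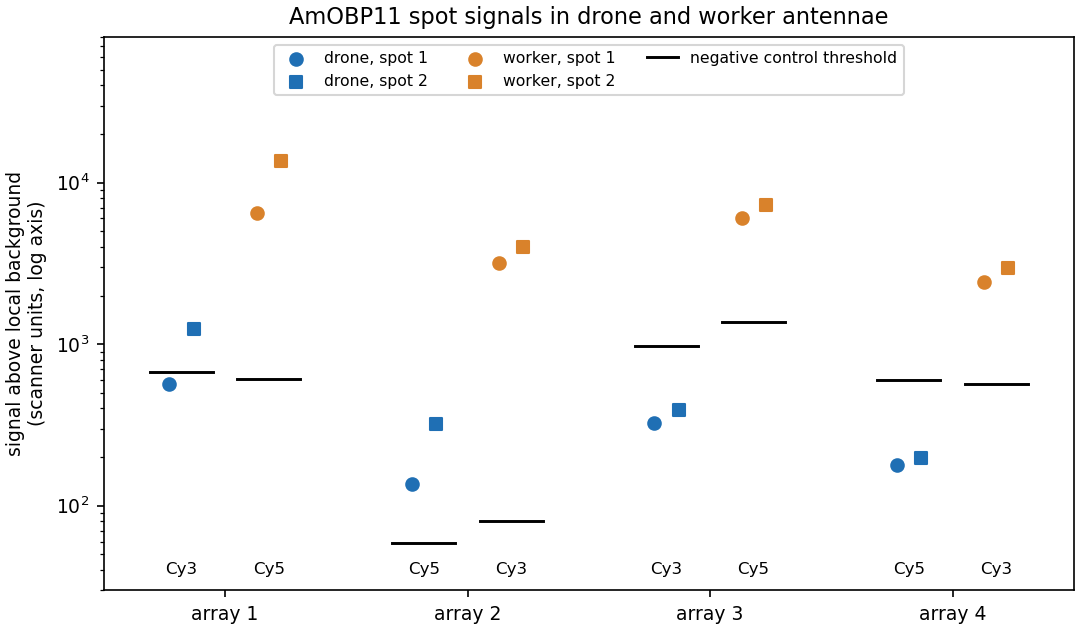
Signal of each AmOBP11 spot above local background in scanner units, on a log axis, for drone (blue) and worker (orange) antennae on 4 arrays, with circles for the first and squares for the second spot, the dye under each pair, and a black bar at the negative control threshold of that channel. All 8 worker spots lie above their threshold, and of the 8 drone spots 3 do, the second on array 1 and both on array 2.

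After normexp background correction and loess within each array, the log2 ratio of drone over worker was -3.63, -3.41, -3.46 and -3.24 on arrays 1 to 4. AmOBP11 thus pointed to worker on every array. The mean was -3.43 ± 0.16 (SD, n = 4 arrays), and -3.46 ± 0.15 (SD, n = 3) with arrays 3 and 4 averaged as 1. As a fold this mean is 10.8, worker over drone, with drone signal above the controls on only 2 of the 4 arrays behind it. On those arrays, 1 and 2, the fold was 12.4 and 10.6, and the signals before normalization gave 11.1 and 15.7. On arrays 3 and 4 no fold is given, since drone signal was under the controls. There, worker signal was 6.81 times the drone threshold on array 3 and 4.48 times on array 4, in raw units of unlike dyes. After loess the arrays lay close together: over all 313 genes the median SD between arrays was 0.41, and 90.1% of genes had a larger SD than AmOBP11. Only 105 of the 313 genes were above the controls on at least 3 arrays in drone or in worker. No median SD is given for those alone, so the comparison is largely with genes of low signal. The SD of AmOBP11 was 0.80 under median centring and 0.67 under housekeeping centring. It was 0.39 under non-receptor centring and 0.22 with no normalization, so how close the arrays lay depends on the normalization.

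On the scale of log2 levels, after quantile normalization of the average intensities between arrays, drone had 9.41, 9.46, 8.07 and 7.98 on arrays 1 to 4, against 13.04, 12.86, 11.52 and 11.22 in worker. The 4 drone levels lay below the 4 worker levels, with a gap of 1.76 between the highest drone and the lowest worker value. Of the 313 genes, 4.79% had all drone levels above all worker levels, and 7.03% had all of them below. On this scale both sexes read lower on arrays 3 and 4 than on arrays 1 and 2. Both levels of an array are built from its shared average intensity, so with a steady ratio they move together by construction. Before normalization, signal in both sexes was higher on array 3 than on array 2.

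The duplicate spots allow a view of the error within an array. On array 1 the second spot was brighter than the first by 2.17 times in drone and 2.10 times in worker, and the log2 ratios of the spots were -3.60 and -3.67, near each other in spite of that gap. On array 3 they were -3.45 and -3.46. On array 2 they were -3.66 and -3.16, a difference larger than in all but 4.15% of genes, with the second spot brighter by 2.35 times in drone and only 1.26 times in worker. On array 4 they were -3.04 and -3.43, where 14.7% of genes had a larger difference. Each spot alone thus gave a ratio strongly toward worker on all 4 arrays, with means of -3.44 for the first and -3.43 for the second. Both drone spots on arrays 3 and 4, and the first on array 1, were under the negative control threshold, which limits the spot ratios there.

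The scanner files also give the share of a spot's pixels brighter than local background plus 2 SD. In drone the first spot had 78%, 93%, 34% and 43% on arrays 1 to 4, against 80%, 99%, 97% and 95% in worker. The second spot had 87%, 95%, 0% and 1% in drone, against 90%, 96%, 93% and 38% in worker. This share did not simply follow brightness. On array 3 the second drone spot, at 392 units above background, was brighter than the first, at 324 units, and on array 4 it was too, at 197 against 178 units. The second worker spot on array 4, with the share of 38%, had 2957 units.

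Whether the dye moved the ratio is a question the choice of the gene did not touch, since the swap is even. With drone in Cy3 the log2 ratios were -3.63 and -3.46, and with drone in Cy5 they were -3.41 and -3.24. The dye coefficient, in the direction of Cy5, was 0.11 ± 0.19 (limma, SE, n = 4 arrays), with a Benjamini-Hochberg adjusted p of 0.791 over 313 genes. It was not distinguishable from 0 at this precision, and 71.9% of genes had a larger coefficient in size. The test called 0.319% of genes, a single one, and 56 genes had an unadjusted p under 0.05.

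The authors' deposited table holds a log2 value for each spot, with no statement of direction, and its method of normalization stays unknown. In the authors' deposited table AmOBP11 had 3.61, 3.58, 3.37 and 2.89 for the first spot on arrays 1 to 4 and 3.48, 2.84, 3.33 and 3.27 for the second. All 8 values were positive. Across genes, which are not independent replicates, its columns ran with worker over drone at r = 0.98, 0.91, 0.94 and 0.98 on arrays 1 to 4. Read that way, the authors' deposited table also put AmOBP11 higher in worker on every array.

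**Figure D2:**
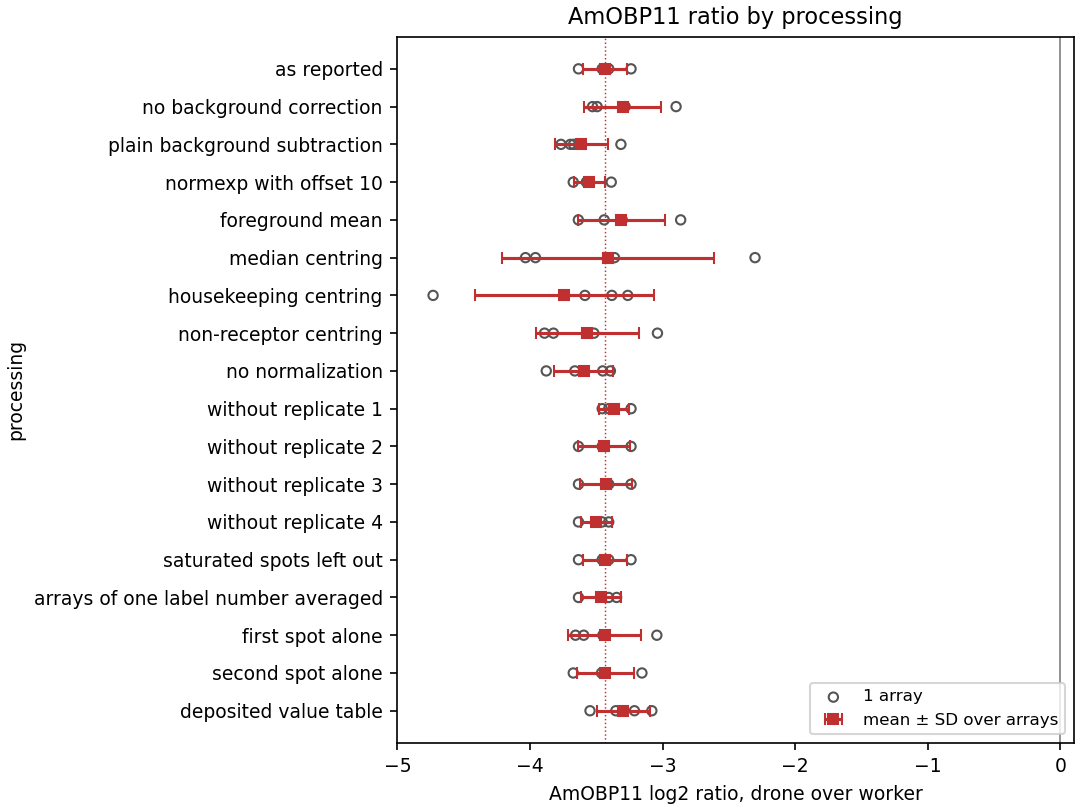
Log2 ratio of drone over worker for AmOBP11 by way of processing the arrays, with open circles for single arrays and red squares with bars for the mean and SD. Where arrays of a shared label number were averaged, the mean of arrays 3 and 4 is drawn as a single circle. The dyes are those of the label fields, except for the authors' deposited table, whose sign was turned to drone over worker as read from its correlation across genes. Means run from -3.74 to -3.30, and every array stays below 0. The circles spread most under median and housekeeping centring, where array 4 lies apart at -2.30 and -4.73.

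The position of AmOBP11 in its family was the basis of its choice and is given as such. Among the 19 binding proteins it had the lowest ratio on arrays 1, 2 and 4. On array 3 it was second to AmOBP19, a binding protein that had -2.67, -3.27, -3.84 and -2.86 on arrays 1 to 4, with a mean log2 ratio of -3.16. The ranges of these 2 genes overlap, so their order rests on small differences. Over the whole array AmOBP11 had the second lowest mean ratio of 313 genes, and on each single array its rank from the lowest was 3.

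In the fit over all genes, 11.8% of the 313 were called, 4.47% as higher in drone and 7.35% as higher in worker (limma, adjusted p under 0.05). Besides AmOBP11, which is among those calls by its choice, 0 of the other 18 binding proteins were called higher in drone and 6 higher in worker. At an unadjusted p under 0.05 these counts were 1 and 8, beside 9.9% of all genes higher in drone and 11.8% higher in worker. These shares include many genes with low signal. Only 105 of the 313 were above the negative controls on at least 3 arrays in drone or in worker. Fitted on those 105 alone, limma called 18 genes higher in drone and 22 higher in worker, so the share called was larger there. Of the 22, 7 were binding proteins, AmOBP11 included. The median log2 ratio of the 18 was -0.25, beside 0.01 over all genes. The 6 called higher in worker in the fit over all genes, besides AmOBP11, were AmOBP19, AmOBP02, AmOBP13, AmOBP04, AmOBP14 and AmOBP15. Their mean ratios ran from -3.16 to -0.94. AmOBP02 and AmOBP04 are also known as the antennal-specific proteins ASP2 and ASP4.

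The smaller of these differences varied more between arrays than that of AmOBP11. AmOBP14 had -1.06, -2.46, -1.91 and -1.91 on arrays 1 to 4 (mean -1.84 ± 0.25 SE, limma adjusted p = 0.00395). AmOBP15 had -0.24, -1.35, -1.12 and -1.06 (mean -0.94 ± 0.22 SE, limma adjusted p = 0.0379). Both were lower in drone on 4 of 4 arrays. AmOBP15 had a saturated worker spot on 1 array, AmOBP02 and AmOBP13 likewise, and AmOBP04 on 3 arrays. Of the 18 binding proteins other than AmOBP11, limma called 2 higher in worker under housekeeping centring and 0 under median centring, with 5 at an unadjusted p under 0.05 under either. With the dye coefficient in the model it called 8.

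**Figure D3:**
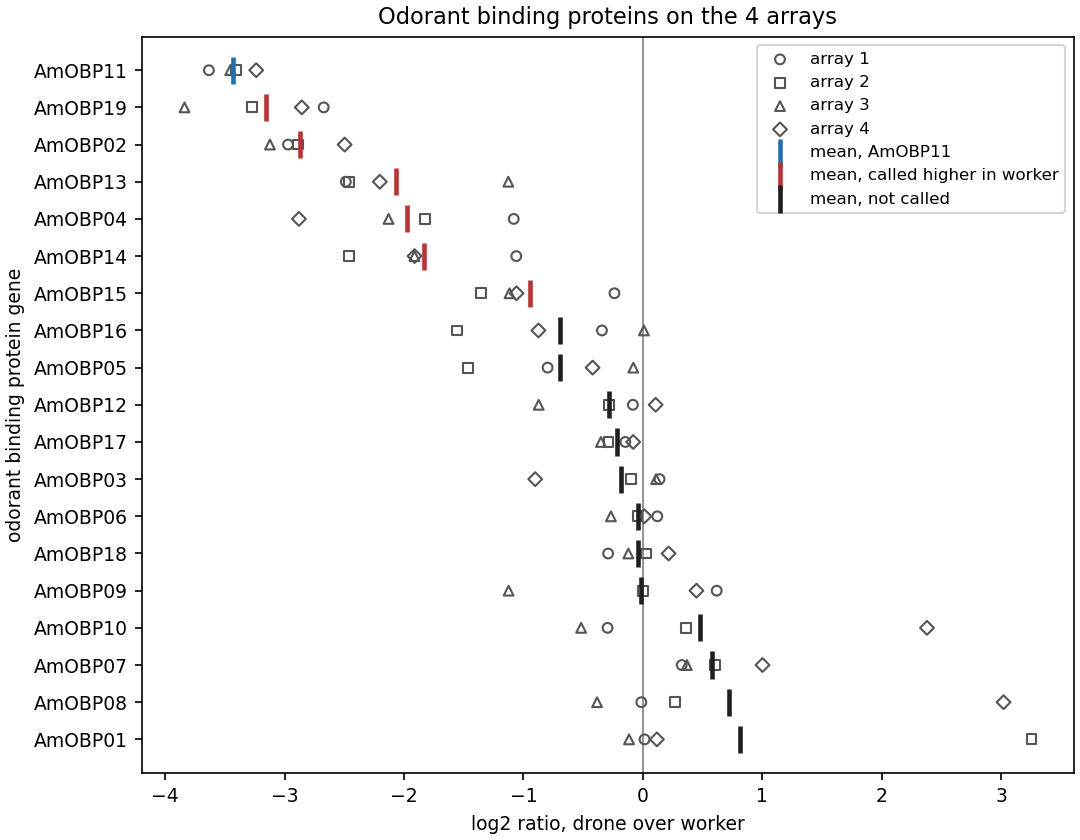
Log2 ratio of drone over worker for the 19 odorant binding proteins, ordered by their mean, with a symbol for each array and a bar for the mean (blue for AmOBP11, red for the other genes called higher in worker, black for those not called). AmOBP11 lies at the worker end between -3.63 and -3.24, and the means of the 12 genes not called lie between -0.69 and 0.82.

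AmOBP11 has a binding protein gene as its neighbour. Of the 19 genes, 18 matched a symbol in the RefSeq gene table of assembly Amel_HAv3.1, and there Obp10 stands next to Obp11 with no gene between them. AmOBP10 had log2 ratios of -0.30, 0.36, -0.52 and 2.38 on arrays 1 to 4 and was not called (limma adjusted p = 0.672). Its signal was not above the negative controls on any array in either sex, so no fold is given and the pair cannot be compared at this signal. The other called genes lie elsewhere, 4 in an unbroken run of 7 binding protein genes from Obp13 to Obp19 and 2 in a run of 6 that holds Obp2 and Obp4.

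The genes whose levels ran most like those of AmOBP11 were sought over 8 levels, 4 arrays by 2 sexes, among the 312 other genes. The highest Pearson correlation was that of AmCg5, at r = 0.97. AmCg5 is taken as a chemosensory protein, another family of small soluble carriers, because that class has as many members as there are AmCg names. Next came AmCyp006BE1, a cytochrome P450, at r = 0.95, and the odorant receptor AmOr063 at r = 0.92. The odorant receptor AmOr112 followed at r = 0.91 and the alpha-arrestin AmAAR2 at r = 0.91. The closest binding proteins were AmOBP04 at r = 0.90, AmOBP02 at r = 0.88 and AmOBP19 at r = 0.85.

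These correlations are descriptions, since both channels of an array share its spots. The 8 levels of AmOBP11 differ mostly by sex, the difference it was chosen for, so a gene with a steady worker bias tends to give a high r. Of the 312 genes, 6 had r over 0.9 and 6 had r under -0.9, and the median was -0.02. Likeness here is of shape and not of size. AmCg5 had a mean log2 ratio of -1.62 and AmCyp006BE1 one of -4.45, on either side of AmOBP11. AmOr063 cleared the negative controls in 0 drone and 3 worker channels, and AmOr112 in no channel of either sex.

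**Figure D4:**
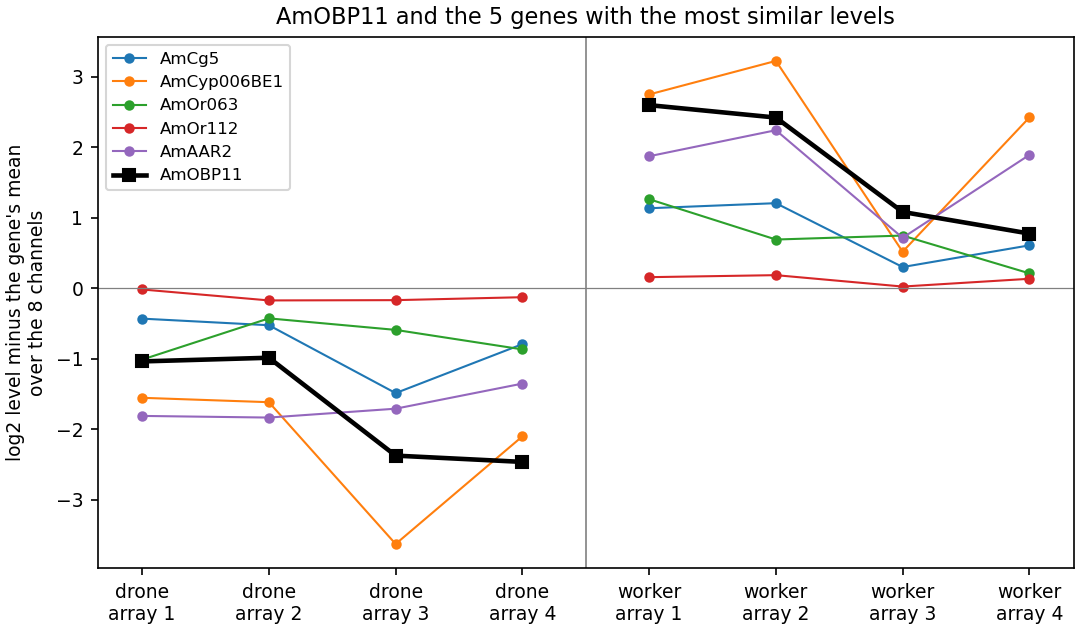
Log2 level of AmOBP11 (black squares) and of the 5 genes with the highest correlation to it, each minus its own mean over the 8 channels, for drone (left) and worker (right) on arrays 1 to 4. All 6 genes lie below 0 in drone and above 0 in worker, and AmOBP11 is lower on arrays 3 and 4 than on arrays 1 and 2 in both sexes.

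Other genes that handle odorants around the neuron were counted in the same fit over all genes. That fit called 4.47% of all genes higher in drone and 7.35% higher in worker. Of 6 genes taken as chemosensory proteins, 0 were called as higher in drone and 1 as higher in worker. At an unadjusted p under 0.05 the counts were 0 and 2, to be read against the 9.9% and 11.8% of all genes. The called gene was AmCg5, at -1.57, -1.73, -1.79 and -1.40 on arrays 1 to 4 (limma adjusted p = 9.79e-04). Of 10 carboxylesterases, which can degrade ester odorants, 2 were called higher in drone and 0 in worker, and AmCEst01 had the smallest adjusted p of these. At an unadjusted p under 0.05 they were 3 and 1, and 1 of 10 is near the 11.8% of all genes. AmCEst01 had a saturated drone spot on 3 arrays, which limits its ratios. Of 7 glutathione S-transferases, detoxifying enzymes, 1 was called in each direction, the worker one being AmGST7. At an unadjusted p under 0.05, 3 were higher in drone and 1 in worker, and 1 of 7 is near the 11.8% of all genes. Neither AmSNMP, a sensory neuron membrane protein, nor AmOr002, the co-receptor of odorant receptors, was called, and both were above the negative controls on all 4 arrays in both sexes. AmSNMP had a mean log2 ratio of -0.49 and was lower in drone on 4 of 4 arrays (limma, unadjusted p = 0.034, adjusted p = 0.173). AmOr002 had 0.42 and was higher in drone on 4 of 4 arrays (limma, unadjusted p = 0.035, adjusted p = 0.174).

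Opsins, light receptors of the eye and brain, were read as a sign of RNA from other tissue. None of the 5 was called by limma, also at an unadjusted p under 0.05. Their summed signal above background was 1664.5, 172, 2348 and 508 units in drone on arrays 1 to 4, against 435, 357, 1601.5 and 2657.5 units in worker. On each array the Cy3 channel had the higher sum, so within an array dye and sex cannot be told apart in these sums. Of the 5, AmLop2 cleared the negative controls in no channel of either sex. AmBLop cleared them in 1 drone channel and 0 worker channels. AmLop1, AmPteropsin and AmUVop cleared them in 0 drone channels each, and in 2, 1 and 1 worker channels. Their part in the AmOBP11 ratio was not tested.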

How the data were processed

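Drone and worker antennal RNA was measured on 4 two-colour arrays. Per the file headers, the deposited scanner files hold spot intensity for Cy5 (635 nm) and Cy3 (532 nm), as foreground median and mean and as the median around the spot. The deposited files also give the percent of pixels over background or saturated, and a quality score per spot, with -75 for an absent spot. Print positions served to match spots. The authors' deposited log2 table gives no scale, centring or direction. Scanner and image software are not given in the sources used here.

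All fits used limma 3.58.1 under R 4.3.3. Foreground medians went through normexp (offset 50) and loess within arrays, with control spots at weight 0. Both spots were averaged, ratios turned to drone over worker, and all 313 genes fitted (lmFit, eBayes, two-sided, Benjamini-Hochberg), checked on simulated data. A spot was saturated at a median of 65535. Likeness used levels after loess and quantile normalization of average intensities, over all genes. Named genes were AmOBP11, the called binding proteins, the next lowest one, the genome neighbour, the 5 most alike genes, markers, and the smallest adjusted p in each list. The binding protein of most similar sequence, also in that rule, was not analysed here. Alternatives were other background corrections, centrings, spots and dyes, a dye coefficient, arrays left out, and arrays 3 and 4 averaged because their labels share a number. A further alternative fitted only the genes above the negative controls. The gene and the lists were chosen with earlier results of these data known.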

Additional observations from a re-analysis of the deposited data

Results flagged for a closer look

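Among 37 sets of 4 array values, 1 held an array far from the others, where chance alone marks about 1 in 20. It was AmOBP01, a binding protein with a log2 ratio of drone over worker of 3.25 on array 2 and of -0.12 to 0.12 on the other 3 arrays. AmOBP01 had a saturated spot on 3 arrays in drone and on 2 in worker, which limits its ratios. The part of saturation in this pattern was not tested. The ratio and the 2 levels of AmOBP11 held no such array.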

How the results depend on the processing

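The AmOBP11 log2 ratio of -3.43 was recomputed under 19 alternatives. It was negative under all 18 that did not use the protocol dyes, from -3.74 to -3.30, and from -3.50 to -3.37 with 1 array left out. These include the authors' deposited table, whose direction was read from its correlation with the present ratios, so its sign is no independent support. Leaving out saturated spots or adding a dye coefficient could not move the ratio, since no AmOBP11 spot was saturated and the swap is even. The ratio moved by more than the SD between arrays under plain background subtraction (-3.61) and housekeeping centring (-3.74). Under housekeeping centring the median gene stood at -0.25, and AmOBP11 at -3.49 relative to it. With the dyes of the protocol texts its mean was 1.62, with opposite signs on single arrays, and 0 drone genes, 0 worker genes and 0 binding proteins were called by limma (8 genes, of them 1 binding protein, had an unadjusted p under 0.05). The AmOBP11 dye coefficient stayed uncalled under all 8 alternatives run. Its size and sign depended on the normalization, from -0.32 ± 0.52 (limma, SE) under housekeeping centring to 0.58 ± 0.27 under median centring. Genes called higher in drone and in worker, 14 and 23, were 4 and 4 under median centring, 2 and 5 under housekeeping centring, 6 and 15 under non-receptor centring, and 4 and 13 without normalization. These settings also leave out loess, and the cause was not tested. With 1 array left out they ran from 6 to 14 in drone, with 7, 6 and 8 without arrays 1, 2 and 3, and from 13 to 29 in worker, lowest without array 2. Binding proteins called higher in worker, 7, were 1 under median and 3 under housekeeping centring, 6 to 7 with 1 array left out, and 9 with the dye coefficient in the model, which called 20 drone and 30 worker genes in all. With arrays 3 and 4, which share a label number, averaged as 1, the counts were 16 drone genes, 24 worker genes and 6 binding proteins. Low drone signal on arrays 3 and 4 limits the ratio there. Each ratio already pairs a drone and a worker pool on 1 array, so no further replicate block was fitted.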
